A study of Mus musculus with 14 samples.

Results

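The cytosolic ribosomal protein genes were examined as one set in H3K4me3 peak lists of mouse hematopoietic stem and progenitor cells. The set was chosen by symbol. It took every protein-coding gene named Rps or Rpl with a number and at most 1 of a few suffix letters, together with Rpsa, Rplp0, Rplp1 and Rplp2, and it took neither pseudogenes nor the Rps6k kinases. This gave 84 genes, 32 of the small subunit and 52 of the large subunit, of 21357 coding genes with a known start in the RefSeq annotation of GRCm38.p6. A gene counted as called in a list when a peak overlapped 1 kb on either side of one of its starts. Where several peaks did, the one with the highest fold enrichment was used.

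The cells were LSK cells, the Lin-Sca1+cKit+ fraction of bone marrow that holds stem and multipotent progenitor cells, sorted by flow cytometry from C57BL/6J male mice. The mice had been given a high-fat diet (HFD) or a low-fat control diet (LFD) and carried no transgene or deletion named in the labels. H3K4me3 was mapped by CUT&Tag, in which an antibody brings a transposase to the marked chromatin, with 3 HFD and 4 LFD libraries. The labels do not say whether each library is 1 animal or a pool, and they name no batch. By the study's account, libraries of these cells came from 2 cohorts and its test took batch and pairing into account. The study also states that diets were compared only within a cohort. The labels do not say which library belongs to which cohort, so cohort could not be taken into account here. The p-values measure the spread between these libraries, with any cohort difference in it. The 7 IgG control libraries were not analyzed here, but they can enter the deposited fold as its background.

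Most of these proteins are present in a single copy in each ribosome, so a cell makes them in matched amounts, and their messenger RNAs are among its most abundant. Their promoters are typically CpG-rich, and transcription often begins at a C inside a run of pyrimidines. In the messenger RNA this run becomes the terminal oligopyrimidine (TOP) tract, through which growth signals control translation. H3K4me3 is found on the nucleosomes around the starts of active genes. In the blood system, loss of 1 copy of certain ribosomal protein genes causes Diamond-Blackfan anemia, a failure of red cell production.

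The promoters are shown first because the peak positions below are measured from them. RefSeq promoter sequence of GRCm38.p6 was given for 64 of the 84 genes. Each window below runs from 60 bases before the start to 30 bases after it, so it holds promoter and the first bases of exon 1. The 6 genes were picked for the results they carry. Rpl15 had the highest mean fold percentile of the set, Rpl7a had the longest pyrimidine run, and the others are pairs of a widely expressed gene and its relative with restricted expression. Capitals mark the longest pyrimidine run that reaches within 10 bases of the start.
Rpl15 (chr14:18270957-18271046, minus strand): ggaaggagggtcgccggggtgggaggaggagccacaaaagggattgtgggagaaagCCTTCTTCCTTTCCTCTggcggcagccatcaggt
Rpl7a (chr2:26910747-26910836, plus strand): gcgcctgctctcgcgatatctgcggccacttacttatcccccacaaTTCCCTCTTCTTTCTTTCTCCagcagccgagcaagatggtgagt
Rpl39 (chrX:37085193-37085282, minus strand): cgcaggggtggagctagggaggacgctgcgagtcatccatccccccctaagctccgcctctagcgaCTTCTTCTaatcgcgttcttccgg
Rpl39l (chr16:10170168-10170257, plus strand): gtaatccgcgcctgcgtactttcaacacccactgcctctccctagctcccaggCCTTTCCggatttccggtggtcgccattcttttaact
Rpl10 (chrX:74270756-74270845, plus strand): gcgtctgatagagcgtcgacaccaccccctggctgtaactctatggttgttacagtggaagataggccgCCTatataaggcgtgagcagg
Rpl10l (chr12:66284372-66284461, minus strand): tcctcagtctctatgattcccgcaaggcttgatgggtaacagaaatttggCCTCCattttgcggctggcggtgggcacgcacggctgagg

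A run of 8 or more pyrimidines reached within 10 bases of the start in 28 of the 64 promoters, or 43.8%. The same held for 13.5% of 17428 other coding promoters. The first transcribed base was C in 31.2% of the ribosomal promoters and in 13.7% of the others. The run was 21 bases long at Rpl7a and 17 at Rpl15. It was 8 bases at Rpl39, which had a peak in all 7 lists, and 7 bases at Rpl39l, which had none. The ratio of observed to expected CpG had a median of 0.865 in the set and 0.593 elsewhere. Among promoters called in at least 1 list, the medians were 0.877 and 0.797.

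Motif letters were searched on both strands of the 300-base windows around the starts. TCTCGCGA, most of a palindrome found at some housekeeping promoters, was present in 11 of 64 ribosomal promoters (17.2%) and in 1.49% of the other coding promoters. CCGGAAG, a core letter string of ETS factors, was present in 25 of 64 (39.1%) against 12.1%, and AAGATGG, of YY1, in 9 (14.1%) against 6.36%. GGGCGG, of SP1, was found in 59.4% against 47.4%, and TATAAA in 10.9% against 13.1%. CCAAT, of NFY, was found in 29.7% against 38.9%, the E-box CACGTG in 7.81% against 7.96%, and GCGCATGC, of NRF1, in 4.69% against 3.67%. The others here are all 17428 other coding promoters, of which 9444 were called in any list. Motif shares among called promoters only were not computed. A match describes the letters and is not a measured binding site. The copies of TCTCGCGA overlap where it meets its own reverse complement. Rps6, Rps19 and Rps28 are shown because they held the full palindrome and take part in results below, with the matches in capitals.
Rps6 (chr4:86857338-86857427, minus strand): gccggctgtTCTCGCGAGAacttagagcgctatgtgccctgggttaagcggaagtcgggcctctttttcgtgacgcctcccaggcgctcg
Rps19 (chr7:24884532-24884621, plus strand): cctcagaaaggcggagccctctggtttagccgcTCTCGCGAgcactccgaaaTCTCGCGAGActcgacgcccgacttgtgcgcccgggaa
Rps28 (chr17:33824533-33824622, minus strand): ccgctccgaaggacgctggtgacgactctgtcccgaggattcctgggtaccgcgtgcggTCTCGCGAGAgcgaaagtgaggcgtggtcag

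A few facts of the whole series bear on these genes. The lists held 6921 to 13094 peaks each. The authors' fold enrichment compares a peak's summit with a local background found for each list. Strength is therefore given here as a percentile within the list, from 0 for the weakest peak to 100 for the strongest. The lists give no read totals. Fragments at each summit and the local background were recovered from the deposited fold and -log10 p, and 1 setting of the caller solved 100% of peaks in every list. The recovery took fragments as scaled to a control's depth, so this background can reflect the IgG control and not only the H3K4me3 library. Of the 12 LSK marker genes listed, 10 were called in at least 1 list, including Kit and Cd34 in all 7. Ly6a, which encodes Sca1, and Slamf1 were called in none. Of 15 mature-lineage markers with a start, 1 was called, in 1 list.

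HFD replicate 3 stood apart from the other 6 lists. Over the 4672 coding promoters called in all 7 lists, its fold percentiles had Spearman correlations of 0.059 to 0.085 with the other lists, while the other 15 pairs of lists reached 0.289 to 0.643. Ranked by recovered fragments instead, its correlations were 0.524 to 0.660, and the other pairs gave 0.494 to 0.822. These promoters are shared by all lists and the correlations only describe them. In this list 80.6% of all peaks lay above the list's lowest background level, against 26.1% to 69.4% in the other lists. The main fold results are therefore given with and without it.

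Nearly every ribosomal protein gene had an H3K4me3 peak at its promoter in these cells. Of the 84 genes, 78 (92.9%) had a peak in at least 1 list, against 11475 of 21273 other coding genes (53.9%). A peak in all 7 lists was found for 41 genes (48.8%), against a background of 4631 other coding genes (21.8%). Taken over the called promoters only, the shares in all 7 lists were 52.6% for the set and 40.4% for the others. A further 22 genes had a peak in 6 lists and 10 in 5 lists. Both subunits were alike in this respect, with 15 of 31 called small-subunit genes and 26 of 47 called large-subunit genes in all 7 lists.

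**Figure D1:**
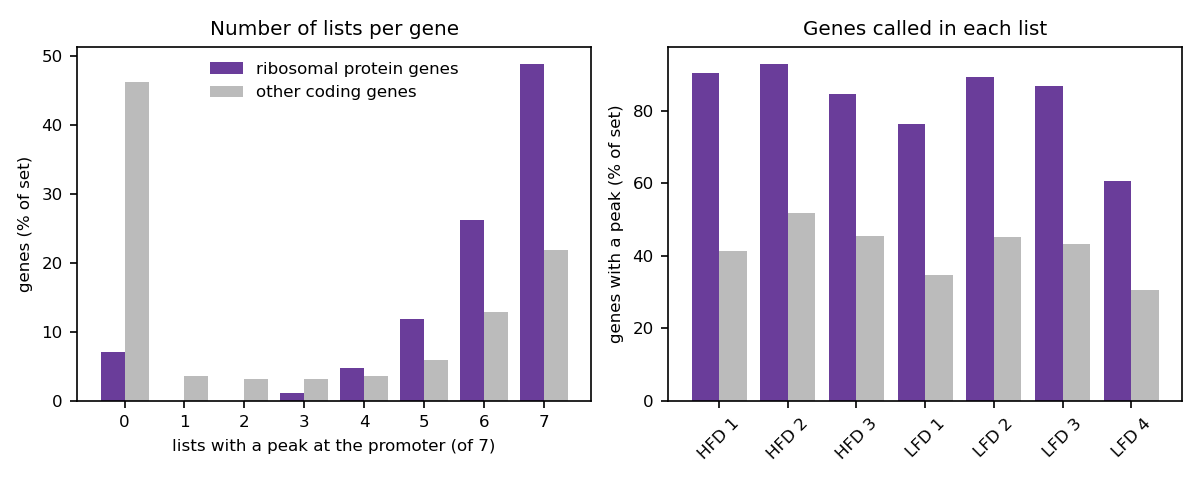
Share of ribosomal protein genes (purple) and other coding genes (gray) by the number of lists with a promoter peak (left), and share called in each list (right), in percent of each set. The 48.8% of ribosomal protein genes called in all 7 lists stand beside 21.8% of the others, and the lowest share of the set, 60.7%, was in LFD replicate 4.

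The fewest genes were called in the shortest lists. HFD replicates 1 to 3 held peaks at 76, 78 and 71 of the 84 genes, and LFD replicates 1 to 4 at 64, 75, 73 and 51. The groups overlapped, because LFD replicates 2 and 3 held more of them than HFD replicate 3. The 2 shortest lists, LFD replicates 4 and 1, lacked 27 and 14 of the 78 genes seen elsewhere, and the other lists lacked 0 to 7. Other coding promoters thinned in the same lists. Of those called anywhere, 56.7% were present in LFD replicate 4 and 64.4% in LFD replicate 1, against 65.4% and 82.1% of the ribosomal promoters.

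The genes that missed 1 list were mostly absent from LFD replicate 4 alone. Among these were Rpl4, Rpl5, Rpl8, Rpl11, Rpl12, Rpl18, Rpl30, Rpl31, Rpl37a, Rpl7l1, Rps3a1, Rps13, Rps27a and Rps29. Rpl10a, Rpl23a and Rps16 missed LFD replicate 1 alone, Rpl26 and Rpl27 missed LFD replicate 3, Rps9 missed LFD replicate 2, and Rplp0 missed HFD replicate 3. The genes called in 5 lists were Rpl28, Rpl32, Rpl41, Rps3, Rps15, Rps20, Rps24, Rps26, Rps28 and Rpsa. Rpl6, Rpl10, Rpl36a and Rps27 were called in 4 lists and Rps4x in 3.

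Of the 5 genes called in 3 or 4 lists, 3 lie on the X chromosome, a feature the symbol rule did not use and that was noticed after their values were seen. Of the 4 X-linked members, Rps4x was called in 3 lists, Rpl10 and Rpl36a in 4 each, and Rpl39 in all 7. Rps4x, a small-subunit protein, had fold percentiles of 16.2 in HFD replicate 1, 26.8 in HFD replicate 2 and 25.1 in LFD replicate 2. Rpl10, which acts late in assembly of the large subunit, had 24.1 and 66.3 in HFD replicates 1 and 2 and 24.6 and 31.8 in LFD replicates 2 and 3. The animals were male, so X-linked genes are present in 1 copy. The part of copy number in these calls was not tested.

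No peak lay within 1 kb in any list for 6 members. Rpl3l, Rpl10l and Rpl39l are relatives of Rpl3, Rpl10 and Rpl39 known mainly from striated muscle (Rpl3l) or male germ cells (Rpl10l and Rpl39l), and Rpl32l is a further copy of Rpl32. For Rpl10l and Rpl39l the nearest peak lay at least 937231 and 241197 bp away. For Rpl3l it lay 3071 to 7619 bp away. Rps25 encodes an ordinary small-subunit protein and shares its start region with Trappc4. Its nearest peak lay 9553 to 9875 bp away in 6 lists and 71086 bp away in HFD replicate 1. The start of Rpl17 was taken from the gene's outer end, since no curated start was given, and its nearest peak lay 1041 to 1465 bp away in 6 lists, just outside the window.

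Rpl3 and Rpl39 were called in all 7 lists and Rpl10 in 4, while their relatives were called in none. In the other 3 pairs both genes were called. Rpl22 and Rpl22l1, which encode alternative proteins of the same ribosomal position, were both called in all 7 lists, with mean fold percentiles of 65.3 ± 26.8 and 46.8 ± 20.7 (SD, n = 7). Rpl7 and Rpl7l1 were called in 7 and 6 lists. Rps27 was called in only 4 lists, with a mean of 37.4 ± 16.3 (SD, n = 4). Its relative Rps27l, a target of p53, was called in all 7 with a mean of 67.9 ± 29.0 (SD, n = 7).

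In fold the ribosomal promoters lay close to other called promoters. Their median fold percentile was 61.3, 76.1 and 44.0 in HFD replicates 1 to 3 and 61.6, 67.3, 62.6 and 51.2 in LFD replicates 1 to 4. The medians of the other called coding promoters were 56.2, 60.4 and 57.2 in the HFD lists and 55.3, 57.3, 58.1 and 56.6 in the LFD lists. The set stood higher in 5 lists and lower in HFD replicate 3 and LFD replicate 4. The difference averaged 3.29 ± 9.66 percentile points (SD, n = 7 lists), smaller than its spread between lists, and 6.04 ± 6.97 (SD, n = 6) without HFD replicate 3. Among promoters called in all 7 lists it averaged -2.40 ± 13.3, with the sign turned. Ranked by recovered fragments at the summit, it averaged 6.65 ± 5.89 (SD, n = 7 lists), larger than its spread. That ranking was added after seeing the data.

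**Figure D2:**
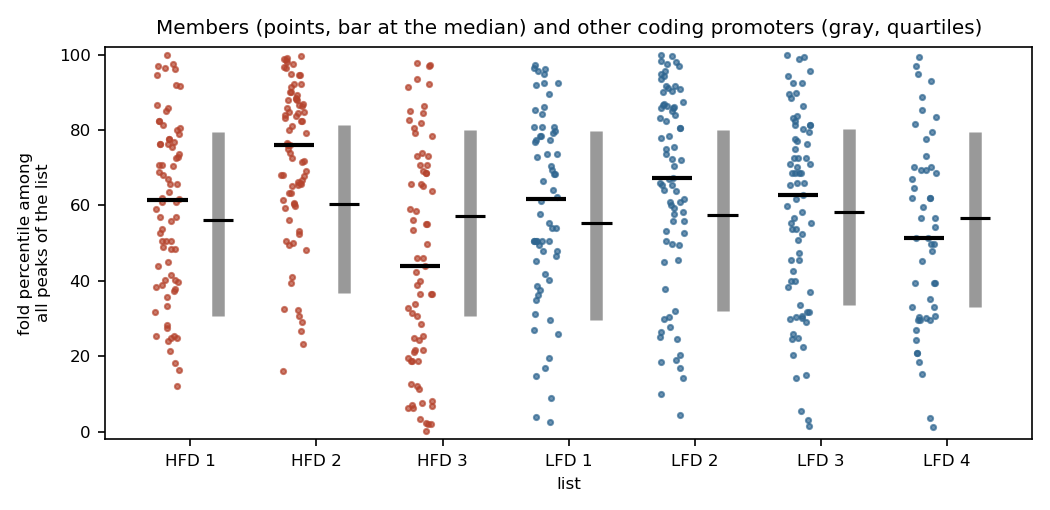
Fold percentile within each list (vertical axis, 0 to 100) of the promoter peaks of ribosomal protein genes (points, black bar at the median, red HFD and blue LFD) and quartiles of other coding promoters (gray bar, black line at the median). The medians of the set run from 44.0 in HFD replicate 3 to 76.1 in HFD replicate 2, while those of the other promoters stay between 55.3 and 60.4.

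Individual genes ranged widely around that middle. Over the 78 called genes the mean fold percentile ran from 19.5 (Rpl28) to 92.0 (Rpl15), with a median of 56.9. Rpl15, a core protein of the large subunit, had percentiles of 96.5, 99.0 and 97.8 in the HFD lists and 95.7, 91.1, 86.3 and 77.7 in the LFD lists. It was thus above the median of the set in every list. Without HFD replicate 3 its mean was 91.1, behind Rps27a at 97.5 and Rpl37 at 92.8, and the lowest means were 17.0 at Rpl6, 19.5 at Rpl28 and 19.6 at Rpsa. Rps27a, which encodes ubiquitin fused to a ribosomal protein, had 97.5, 97.4 and 55.1 in the HFD lists and 96.1, 97.6 and 98.8 in LFD replicates 1 to 3. Rpl5, which binds the smallest ribosomal RNA and also restrains MDM2, had 85.9, 94.7 and 92.2 in the HFD lists and 85.2, 77.9 and 92.4 in LFD replicates 1 to 3.

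At the other end, Rpl28 had 25.3 and 32.5 in HFD replicates 1 and 2 and 14.6, 10.1 and 14.9 in LFD replicates 1 to 3. It was low wherever it was called, although its pyrimidine run was 11 bases long. Rps4x, described above, averaged 22.7 ± 5.7 (SD, n = 3). Rps26, which lies at the messenger RNA exit site and is mutated in Diamond-Blackfan anemia, had 31.7 and 60.4 in HFD replicates 1 and 2 and 3.9, 14.1 and 20.3 in LFD replicates 1 to 3. For the 41 genes called in all 7 lists, the SD of the fold percentile over lists had a median of 21.8 points and ran from 7.7 to 38.2, so most neighbors in this order did not differ beyond their spread.

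**Figure D3:**
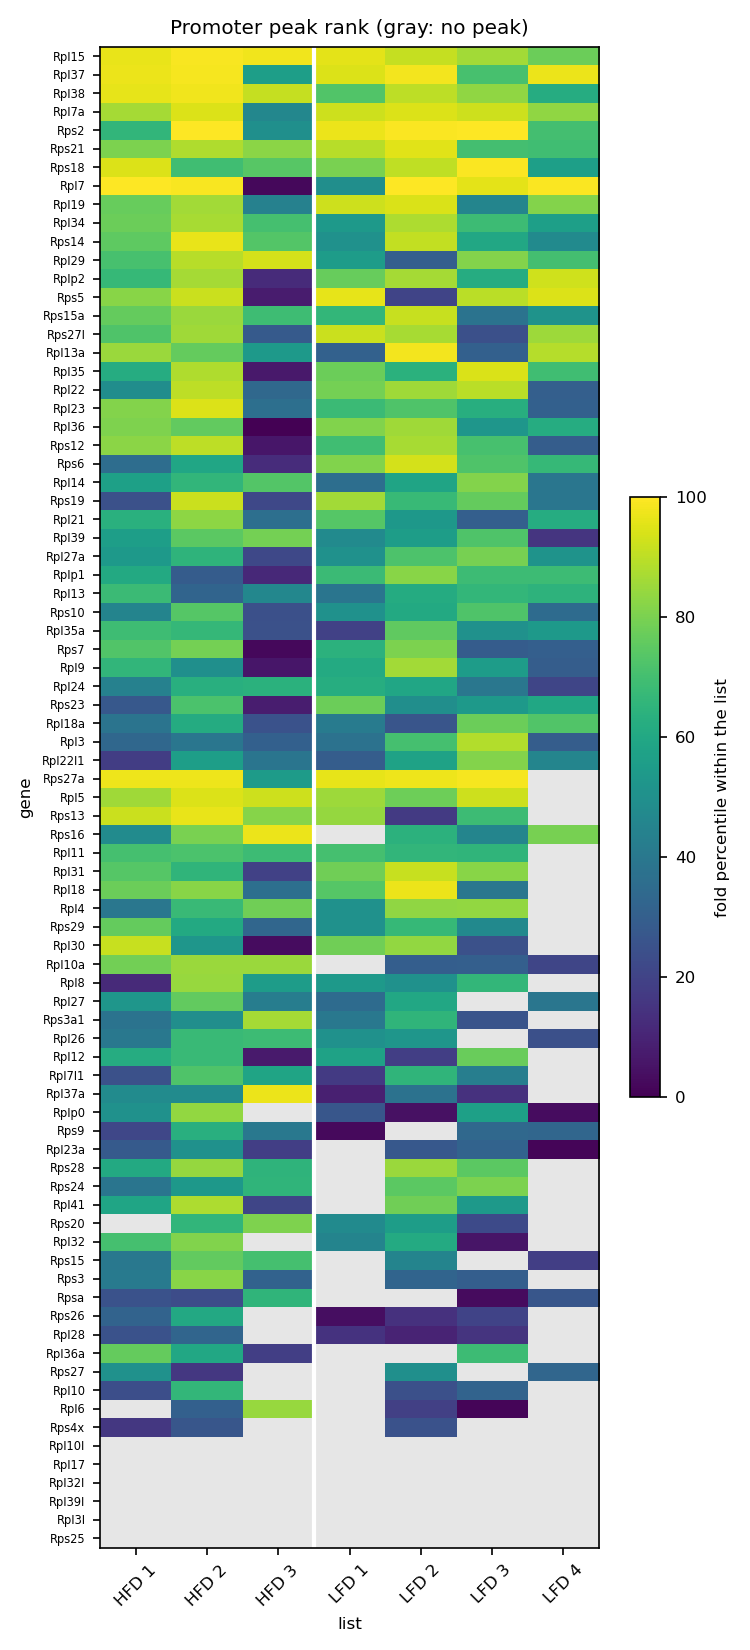
Fold percentile within the list (color, 0 to 100) for 81 of the ribosomal protein genes (rows, ordered by number of lists and then by mean) in the 7 lists (columns, HFD left of the white line), with gray for no peak. Rpl15 is high in every column, the column of HFD replicate 3 holds low values for genes that are high elsewhere, and LFD replicate 4 has the most gray cells.

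The proteins of the stalk, which recruits translation factors to the large subunit, did not all follow the same pattern over the lists. Rplp0, its base, was called in 6 lists with percentiles of 50.5 and 83.8 in HFD replicates 1 and 2 and 26.9, 4.5, 56.7 and 3.5 in the LFD lists. Rplp2 had 67.1, 86.6 and 12.1 in the HFD lists and 76.7, 86.3, 61.7 and 93.0 in the LFD lists. Rplp1 is described with the diet tests. Rpsa, a small-subunit protein also known as the laminin receptor precursor, had 25.3, 23.2 and 65.5 in the HFD lists and 3.1 and 26.9 in LFD replicates 3 and 4.

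The 9 Diamond-Blackfan anemia genes listed were all called, 5 of them in all 7 lists, among them Rps19, Rpl35a, Rps7 and Rps10. Rpl5 and Rpl11 were called in 6 lists and Rps24 and Rps26 in 5. The lists' medians for this group averaged the 57.3rd percentile. Rps19, the most often mutated of them in patients, had 24.7, 92.1 and 21.6 in the HFD lists and 86.1, 67.3, 76.2 and 39.3 in the LFD lists, so replicates of 1 diet spanned most of the scale. Rpl11, the partner of Rpl5 on that RNA, was the steadiest, with 70.6, 71.6 and 68.5 in the HFD lists and 70.3, 65.9 and 65.4 in LFD replicates 1 to 3.

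Peak width did not set the ribosomal promoters apart either. Their median width was 858.5, 1674.5 and 825 bp in the HFD lists and 800.5, 1053, 967 and 477 bp in the LFD lists. Those of other coding promoters were 925, 1340 and 872.5 bp and 781, 1044, 893 and 562 bp. The set was wider in 4 lists and narrower in 3, and the difference averaged 34 ± 144 bp (SD, n = 7). It rested on HFD replicate 2, without which it averaged -16.1 ± 60.5 bp (SD, n = 6). The genes themselves were short, with a median length of 3179 bp against 17700 bp for the other coding genes, and the peak passed the gene's far end in at least 1 list for 2 of the 78 genes (2.56%), Rpl28 and Rpl41, against 0.819% of other called coding genes.

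The widest peaks were at Rpl7, Rpl7a and Rpl41. Rpl7, a large-subunit protein, had widths of 2804, 3335 and 2354 bp in the HFD lists and 1783, 2648, 1629 and 2692 bp in the LFD lists. These were above the median of the set in every list. The median of its summits lay 1089 bp from the start of Rdh10, and the part of that start in the width was not tested. Rpl7a, whose start lies within 1 kb of that of Med22, averaged 1721 ± 535 bp (SD, n = 7). Rpl41 averaged 1666 ± 1024 bp (SD, n = 5), but this gene of 1059 bp is followed by Zc3h10, and the median of its summits lay 21 bp from the start of Zc3h10. The narrowest were Rps4x, at 574 ± 101 bp (SD, n = 3), Rps23, at 632 ± 195 bp, and Rpl22l1, at 636 ± 237 bp (SD, n = 7 each).

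Of fold percentile, width and summit position, only summit position ordered the set and the other promoters the same way in all 7 lists. Positions are given in bp from the nearest annotated start, positive in the direction of transcription. The median summit of the ribosomal promoters lay at 45.5, 47 and 31 bp in the HFD lists and at 46, 36, 33 and 5 bp in the LFD lists. The medians of the other coding promoters were 101, 113 and 96 bp and 88, 107, 84 and 50.5 bp. In every list the ribosomal median was nearer to the start, by 42 to 71 bp. The mean over lists was 34.8 ± 14.7 bp for the set (SD, n = 7) and 91.4 bp for the others. No test was made over the set.

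**Figure D4:**
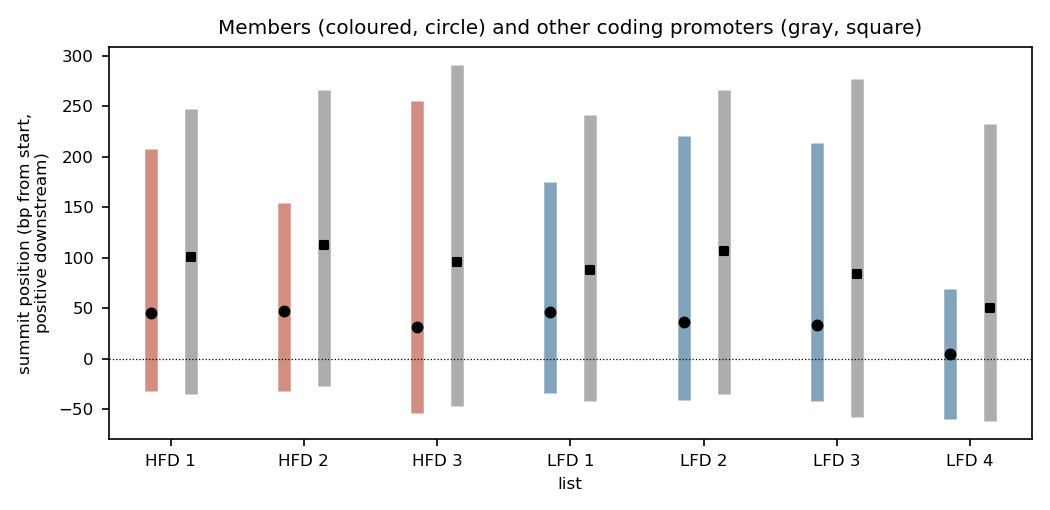
Position of the peak summit relative to the start (vertical axis, bp, positive downstream) in each list, with the quartile range as a bar and the median as a circle for ribosomal protein genes (red HFD, blue LFD) or a square for other coding promoters (gray). The circles lie at 5 to 47 bp and the squares at 50.5 to 113 bp, and the quartile ranges overlap.

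The difference in position depended on the genes chosen. Among promoters called in all 7 lists the means over lists were 3.7 bp for the set and 59.4 bp for the others. With genes that share no start region with another coding gene they were 50.6 and 135 bp, while among genes that do share one the medians averaged -45.2 bp for the 12 called members and -43.1 bp for the others. With genes of 1 listed start the means were 26.5 and 85.4 bp. A summit within 100 bp of the start was found for 40.8% to 60.8% of the called ribosomal promoters and 31.2% to 38.5% of the others, depending on the list. Mitochondrial ribosomal protein genes, with a mean over lists of 30.4 bp, and genes of ribosome assembly, with 12.8 bp, lay as near to the start, so nothing in the position was particular to the cytosolic set.

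Single genes departed from the common position in both directions. Rpl41 had the summit farthest downstream, at 1496, 1498 and 161 bp in the HFD lists and 1401 and 406 bp in LFD replicates 2 and 3. The 3 farthest of these lay near the start of Zc3h10 and the other 2 did not. Rpl29 had summits at 631, 699 and 796 bp in the HFD lists and 512, 699, 630 and 630 bp in the LFD lists, and its start was taken from the gene's outer end. Rpl38, for which a curated start was given, had summits at 522, 498 and 465 bp and at 504, 557, 234 and 468 bp. Both were thus displaced in every list. Upstream, Rpl7 averaged -325 ± 217 bp, Rpl13a -273 ± 117 bp (SD, n = 7 each) and Rpl4 -251 ± 307 bp (SD, n = 6). The median summit at Rpl7 lay 1089 bp from the start of Rdh10. That at Rpl4 lay 52.5 bp from the start of Zwilch, which is transcribed from the same region.

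The comparison of the diets asks whether H3K4me3 peaks at these promoters differed between HFD and LFD lists. None of the 41 ribosomal promoters called in all 7 lists passed the test in strength, width or summit position. Strength and width were ranked within each list, so a change shared by all promoters would not show. The study measured higher total H3K4me3 in LSK cells of HFD mice by flow cytometry. No member was called only in 1 diet, that is in 3 of 3 against 0 of 4 lists or the reverse. Over all 21357 coding genes, 33 were called only in HFD lists, a background of 0.155%, and 0 (0%) only in LFD lists. The smallest p of Fisher's exact test over the 78 called members was 0.143. A larger share of HFD than of LFD lists held the peak for 32 members (41.0%) and a smaller share for 5 (6.41%). The other coding genes called anywhere gave 49.6% and 10.1%. The shortest lists were LFD lists, and the part of list length in these shares was not tested.

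Strength was compared as the fold percentile among the 4672 coding promoters called in all 7 lists, 41 of them ribosomal, with limma and Benjamini-Hochberg adjustment. At an adjusted p below 0.05 it called 0 members and 0 of all promoters (0%). The lowest limma adjusted p among members was 0.949. At an unadjusted p below 0.05 there were 2 members (4.88%) against a background of 4.49%. A two-sided exact permutation test over the 35 ways of dividing the lists cannot go below p = 0.0286, and 2 members reached that value against a background of 2.46%. The HFD and LFD values did not overlap for 5 members (12.2%) against a background of 4.97%. These were Rps6, Rplp1, Rpl27a, Rpl38 and Rpl15, the last 2 higher in HFD, and Rpl27a was named after its values were seen. The percentile was lower in HFD for 25 of 41 members (61.0%) and for 48.2% of other promoters. The median difference was -9.24 percentile points for the members and 0.80 for the others. Without HFD replicate 3 the percentile was lower in HFD for 22 of 42 members (52.4%) and 47.9% of others, and the median difference was -1.35 points for the members and 0.84 for the others. In that fit 3 members had an unadjusted p below 0.05 against a background of 4.07%, and the groups did not overlap for 7 (16.7%) against a background of 12.6%. Its lowest limma adjusted p among members was 0.973.

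The members stood lowest in HFD replicate 3. The median percentile of the 41 members was 46.9, 65.0 and 24.8 in the HFD lists and 52.4, 65.0, 49.5 and 43.6 in the LFD lists. In HFD replicate 3 there were 21 of the 41 members among the lowest 25% of promoters, against 4 to 11 in the other lists. Ranked by recovered fragments, the members' median percentile in that list was 41.4, within the 39.98 to 56.4 of the others. The recovered local background at these promoters was 18.9 times the list's lowest level for the members and 12.3 times for the others called in all 7 lists. In the remaining lists these medians were 1.00 to 2.11 for both sets. The lowest level itself ran from 0.020 to 0.113 between lists and was 0.106 in HFD replicate 3. Equal multiples therefore stand for unequal backgrounds in different lists.

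**Figure D5:**
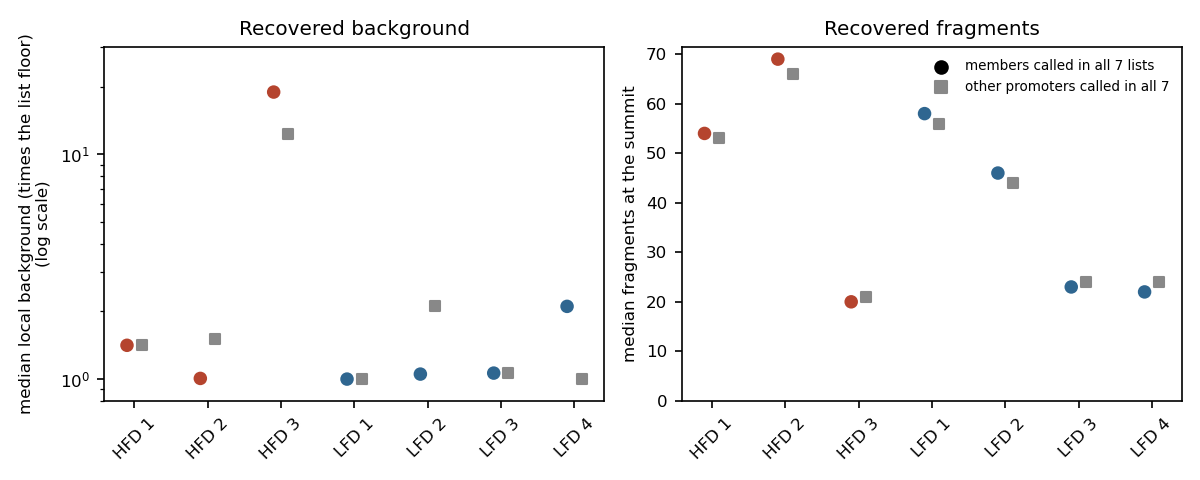
Median local background at the summit, in multiples of the lowest background of the list (left, log scale), and median number of fragments at the summit (right), for ribosomal promoters called in all 7 lists (circles, red HFD and blue LFD) and other promoters called in all 7 (gray squares). HFD replicate 3 has a background of 18.9 at ribosomal and 12.3 at other promoters, with 20 and 21 fragments.

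Rps6 and Rplp1 were the 2 members with unadjusted p below 0.05. Rps6, the small-subunit protein that is phosphorylated by S6 kinase, had percentiles of 14.5, 24.1 and 11.8 in the HFD lists and 68.6, 85.5, 51.4 and 52.4 in the LFD lists. The groups did not overlap, and the difference was -47.7 percentile points (SE 15.7, limma adjusted p = 0.949). It was -45.2 points without HFD replicate 3. Its fragments at the summit were 67, 74 and 26 in the HFD lists and 63, 54, 23 and 23 in the LFD lists. Its local background was 25.04, 8.86 and 37.8 times the list's lowest level in HFD and 1.00 to 1.05 times in LFD. Ranked by fragments the difference turned to 15.5 points (SE 9.79), and the part of the background in the low fold was not tested.

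Rplp1, the stalk protein, had percentiles of 38.0, 4.1 and 10.5 in the HFD lists and 52.4, 65.0, 46.7 and 54.6 in the LFD lists. The difference was -37.1 points (SE 15.7, limma adjusted p = 0.949) and -34.0 points without HFD replicate 3. Its background was 1.00, 17.7 and 4.90 times the lowest level in the HFD lists and 1.00 to 4.21 times in the LFD lists. Rps2, next in this direction, had 43.9, 98.6 and 37.6 in the HFD lists and 94.8, 98.8, 99.7 and 56.4 in the LFD lists, and these groups overlapped. Its difference of -27.4 points was -15.9 points without HFD replicate 3.

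In the other direction the lowest unadjusted p-values belonged to Rpl38, Rpl29 and Rps14. Rpl38, known for its role in translation of Hox messenger RNAs, had 92.0, 93.5 and 84.5 in the HFD lists and 58.0, 78.2, 67.5 and 46.4 in the LFD lists. The difference was 27.5 points (SE 15.5, limma adjusted p = 0.949) and 29.6 points without HFD replicate 3. Rpl29 had 50.6, 72.2 and 88.3 in the HFD lists and 38.1, 11.1, 64.4 and 56.6 in the LFD lists. Rps14, whose loss is tied to the anemia of a myelodysplastic syndrome, had 57.2, 89.5 and 61.5 in the HFD lists and 33.1, 79.5, 36.3 and 31.5 in the LFD lists. The groups overlapped for Rpl29 and Rps14, and their differences of 27.8 and 24.3 points were 19.0 and 28.0 points without HFD replicate 3.

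Width and summit position gave the same answer. For the percentile of width, limma called 0 members and 0 promoters (0%) at an adjusted p below 0.05. Unadjusted p-values below 0.05 were found for 2 members against a background of 3.83%. The smallest permutation p was reached by 1 member against a background of 2.1%, and the groups did not overlap for 3 members (7.32%) against a background of 5.46%. The 3 were Rps6, Rplp1 and Rpl3, the last named after its values were seen. Rps6 had width percentiles of 25.3, 49.1 and 4.7 in HFD and 67.3, 54.7, 68.9 and 60.8 in LFD (difference -36.6, SE 12.04, limma adjusted p = 0.948). Rplp1 had 22.1, 17.5 and 2.7 in HFD and 37.7, 22.9, 60.4 and 48.1 in LFD.

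For summit position limma again called 0 members and 0 promoters (0%). One member had an unadjusted p below 0.05, against a background of 3.94%. It also had the smallest permutation p, against a background of 2.4%, and was the only member whose groups did not overlap, against a background of 4.15%. This was Rpl35a, named after its values were seen. Its summits lay at 182, 137 and 336 bp in the HFD lists and at -3, -5, 1 and 2 bp in the LFD lists (difference 220 bp, SE 61.6, limma adjusted p = 0.951). Rpl35a has 3 listed starts and lies within 1 kb of the start of Iqcg.

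Gene lists next to the set gave shares in all 7 lists of 40% to 80%, and no test of the differences was made. Of 5 ribosomal genes that the symbol rule leaves out, 4 were called in all 7 lists, among them Fau, Rack1 and Rpl36al with mean fold percentiles of 71.7, 71.7 and 85.2, and Rps27rt was called in none. Of 15 other genes with TOP messenger RNAs, mainly translation factors, 14 were called and 10 in all 7 lists. Tpt1 was the strongest of them at 91.8, and Eef2 was not called. Of 20 genes of ribosome assembly and ribosomal RNA transcription, 19 were called and 8 in all 7 lists, Bop1 and Wdr12 at 88.4 and 85.3 and Tsr1 uncalled. Of 78 mitochondrial ribosomal protein genes, 76 (97.4%) were called and 38 (48.7%) in all 7 lists.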

How the data were processed

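H3K4me3 CUT&Tag was analyzed in 7 LSK libraries, 3 HFD and 4 LFD, grouped by the labels. The submitters' processing notes name Trim Galore, Bowtie2, Picard, MACS2, bedtools, HOMER, featureCounts and GRCm38, without versions. The study's methods name a later mouse build, but in every list far more of these genes had a peak at their GRCm38 starts (51 to 78 of 83) than at those of the later build (3 to 10), so GRCm38 was used. The authors deposited 1 MACS2 peak list per library. In these the authors computed with MACS2 the fold enrichment, a ratio of the summit's pileup to its local background. The recovery took 1 as added to both before the ratio, so fold does not fall in proportion to the background. From the same pileup and background the authors computed with MACS2 the -log10 p and the -log10 q, which is corrected for multiple tests within the library. The deposited score is a whole number proportional to the -log10 p and was not used. Replicates were not pooled. Read totals are not in the lists, and duplicates, which the study's methods remove from controls only, can add to fragments at a summit.

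Starts were those of curated RefSeq transcripts, or the gene's outer end where none was given, as for 20 of the 84 genes. Peaks overlapping 1 kb on either side were taken. Percentiles were ranked within each list, and for the diet comparison among the 4672 promoters called in all 7 lists. Those values were compared with limma 3.58.1 in R 4.3.3, over all 4672 promoters with Benjamini-Hochberg adjustment, and with a two-sided exact permutation test. Promoter calls were compared with Fisher's exact test. Scripts ran in Python 3.11.15 with pandas 2.3.3 and scipy 1.17.1 and were tested on simulated data. The members and gene lists were chosen with earlier results of these data known. The genes named were those not called in all 7 lists, the 3 highest and 3 lowest in fold percentile, the 3 widest and 3 narrowest, the 3 with summits farthest in each direction, those with the lowest p by diet (3 in each direction for fold, 2 for width), the stalk proteins and Rpsa, the Diamond-Blackfan anemia genes and the pairs of relatives. Values of a few genes are not reported here. The alternatives tried were other windows, a stricter q, equal numbers of peaks, other rankings, other choices of start, a replicate block and leaving out each library.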

Additional observations from a re-analysis of the deposited data

Results flagged for a closer look

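Single LFD lists stood far from the other 3 for some ribosomal promoters. A gap was counted when it exceeded Dixon's 95% critical value for 4 samples, taken as a share of the group's range. It did so in 7 of 90 groups of 4 LFD values. Chance gives about 5% for independent groups of normally distributed values. Most groups here hold bounded percentiles and all come from the same 4 lists, so that rate is only a rough guide. The percentiles here are among promoters called in all 7 lists.

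For fold, Rpl37 stood at 49.5 in LFD replicate 3, against 90.5 to 96.0 in the other LFD lists. Rps27l stood at 8.09 in the same list, against 72.6 to 85.4. Rpl7 stood at 32.3 in LFD replicate 1, against 89.98 to 99.8. Rps2 stood at 56.4 in LFD replicate 4, against 94.8 to 99.7. Rps14 stood at 79.5 in LFD replicate 2, against 31.5 to 36.3. For width, Rps2 stood at 11.1 in LFD replicate 4, against 80.3 to 92.2, and Rps23 at 7.79 in LFD replicate 3, against 18.03 to 20.1.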

How the results depend on the processing

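The number of members called in all 7 lists was 24 with a -log10 q of at least 5 and 14 with an equal number of peaks per list, and 41 to 56 with 1 library left out. Without HFD replicate 3, 42 members and 4823 other coding promoters were called in all remaining lists. For the stricter q and equal numbers of peaks the counts of other promoters are not given. Whether the set thinned more or less than they did cannot be told from these numbers. The members' mean summit was 50.6 bp among genes with no other coding start within 1 kb and 3.71 bp among promoters called in all 7 lists. Coding promoters called in 1 diet only numbered 69 at the stricter q. They numbered 43 to 330 with 1 library left out, with 330 without HFD replicate 1, 58 without HFD replicate 2, 163 without LFD replicate 2 and 97 without LFD replicate 3. Among members, 1 was called in 1 diet only without LFD replicate 3 (Rpl36a), and 1 at the stricter q (Rpsa), and leaving out libraries gave 0 to 1. At the stricter q, 2 coding promoters differed by diet in fold. With a 500 bp window, 1 differed in summit position, and leaving out 1 library gave 0 to 5, with 5 without HFD replicate 2. No member was among them in any of these fits. The difference at Rps6 turned to 15.5 points ranked by fragments, a ranking added after seeing the data.

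The width difference between the set and other promoters was -78.4 bp among promoters called in all 7 lists and -41.8 bp with equal numbers of peaks. Differences by diet at named genes kept their sign in all other settings but moved in size. Ranked by fragments, they were -1.62 points at Rps2, 8.75 at Rpl29 and 13.6 at Rpl38, and without HFD replicate 2 that at Rps2 was -46.7. The set's fold difference turned to -2.40 points among promoters called in all 7 lists.

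Same-numbered HFD and LFD libraries deviated little together in fold percentile (correlations of 0.15, -0.0020 and 0.046). The fold percentiles of HFD replicate 1 and LFD replicate 1 nevertheless had the highest Spearman correlation of all pairs of lists, 0.643. Whether the numbers mark pairs cannot be decided from these values. With a replicate block, limma called 0 promoters in fold, width or summit position. Unadjusted p was below 0.05 for 2, 4 and 1 of the 41 members, against 203, 213 and 175 of all 4672 promoters. The fewest fragments at any summit were 4 to 21 per list, which limits weak peaks, and a missing peak does not show a missing mark.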

Other observations

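The lower calling of X-linked members had a parallel among other coding genes. Of 368 X-linked genes with a peak in any list, 41 (11.1%) had one in all 7 lists, against 4590 of 11107 autosomal genes (41.3%). The mean number of lists was 3.95 on the X chromosome and 5.47 on the autosomes.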
